A study of Mus musculus with 4 samples.

Results

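A set of 36 genes of the lysosome was followed: 16 of the proton pump, 7 of the lysosomal membrane and 13 hydrolases and other luminal proteins. They were chosen by mouse gene symbol, with the cathepsins left out, and all 36 were found once among the 43346 gene entries of each library. RNA was measured in 4 libraries of total RNA from peripheral blood of adult male C57BL6 mice, 2 of monocytes (MON) and 2 of neutrophils (NEU), with no treatment named. Monocytes were sorted as Gr-1+Mac-1+ cells from the mononuclear layer of a Ficoll gradient, and the study's methods give the gate as Ly6g-, CD11b+. Neutrophils came from the cell pellet after red cells were lysed, with no sort described. Replicates could be separate groups of mice or aliquots of 1 sort, so that p-values here measure only the spread between these libraries.

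The lysosome is an acidic compartment in which proteins, sugars and lipids are broken down. Its acidity is made by the V-ATPase, a rotary pump whose V1 domain burns ATP in the cytosol and whose V0 domain carries protons across the membrane. Many genes of the pump and the lumen share a promoter element read by TFEB and its relatives MITF and TFE3, built around the E-box core CACGTG. Monocytes and the macrophages they give rise to digest engulfed material in lysosomes, while neutrophils store much of their digestive protein in granules made before the cells reach the blood.

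The shared promoter element was looked for first, because it is the sequence feature by which lysosomal genes are usually grouped. RefSeq promoter windows of build GRCm38.p6, from 250 bases before to 50 bases after each start, were given for 30 of the 36 genes. The windows of Atp6v1g1, Atp6v1h, Atp6v1b2, Asah1, Atp6v1c1 and Npc1 were not analysed here. The core CACGTG reads the same on both strands and was present for 10 of the 30 genes (33.3%), against 8.09% of all 27025 genes with a window and 11.8% of the 9862 such genes that were tested for expression. In those 10 genes each of the 16 sites lay within the longer form TCACGTG on one strand or the other, a length looked at after the sites had been seen. That longer form was present for 4.29% of all genes and 7.04% of tested genes. The palindrome TCACGTGA, which contains both shorter forms, was present for 5 of the 30 genes (16.7%) against 1.13% of all genes and 2.25% of tested genes. These shares are descriptions of letters in a window and say nothing about binding.

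Sequences are shown for the 6 genes whose sites lay before the RefSeq start and outside the GENCODE gene, since they let the number, spacing and form of the sites be compared. Capitals mark the core with the flanking T or A of the longer forms, and each sequence reads 5′ to 3′ on the strand of its gene. Lamp1 lies at chr8:13159079-13159160 on the plus strand and Mcoln1 at chr8:3500427-3500456 on the plus strand. Gla lies at chrX:134601173-134601253 on the minus strand and Atp6v0b at chr4:117887334-117887386 on the minus strand. Glb1 lies at chr9:114401009-114401055 and Gaa at chr11:119267802-119267848, both on the plus strand.
Lamp1: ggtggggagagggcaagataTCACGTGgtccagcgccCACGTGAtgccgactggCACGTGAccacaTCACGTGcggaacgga
Mcoln1: cttagaaagggtcgcgcttgTCACGTGttc
Gla: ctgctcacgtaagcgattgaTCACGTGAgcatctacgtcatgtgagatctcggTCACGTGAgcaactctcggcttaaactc
Atp6v0b: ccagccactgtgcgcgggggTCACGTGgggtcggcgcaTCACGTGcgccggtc
Glb1: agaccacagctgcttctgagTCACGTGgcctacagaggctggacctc
Gaa: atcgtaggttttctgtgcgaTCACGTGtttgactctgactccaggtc

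Lamp1 held the most sites, 4 that began 62, 45, 28 and 16 bases before its start. Atp6v0b, Mcoln1 and Gla held 2 each. Atp6v1a, Lgmn, Atp6v0d1 and Atp6v0e each held 1, inside the GENCODE gene or across the start, as did the second site of Mcoln1, so these are not printed. Of the 10 genes with the core, 4 were higher in MON, 1 was higher in NEU and 5 did not pass the expression test described below. Of the 20 genes with a window and no core, 13 were higher in MON, 1 was higher in NEU and 6 did not pass. By the same test, 20.8% of all genes tested were higher in MON and 21.8% higher in NEU. Both directions thus occurred with and without the core, each time with 1 gene higher in NEU. The 2 sets were not tested against each other.

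**Figure D1:**
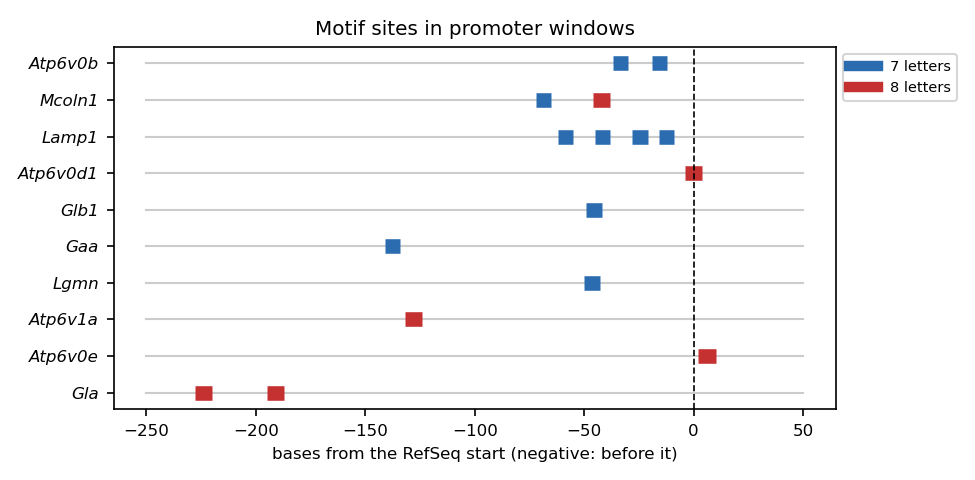
Sites in the promoter windows of the 10 genes that held the core, drawn against distance in bases from the RefSeq start (dashed line), with the whole window as a grey line. Blue marks sites of 7 letters and red sites of 8 letters, and Lamp1 shows 4 sites within the last 62 bases before its start.

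Library totals lay between 20549572 and 26076261 expected counts, the estimated reads per gene. CPM is the expected count of a gene scaled to a common library total. Monocyte marker genes summed to 7376 and 7412 CPM in MON against 1114 and 1061 in NEU, with 10 of 11 higher in MON. The other, Ly6c2, did not pass. Neutrophil markers summed to 7715 and 7894 CPM in NEU against 329 and 357 in MON, with 10 of 11 higher in NEU. The exception, Retnlg, was higher in MON, at 224.4 and 234.8 CPM against 174.0 and 195.3 CPM in NEU. Markers of other cells also moved with the groups. NK cell markers summed to 2690 and 2711 CPM in MON against 29.4 and 29.9 in NEU, with 11 of 11 higher in MON. B cell markers summed to 5548 and 5367 CPM in NEU against 764 and 889 in MON, with 11 of 11 higher in NEU. T cell markers summed to 165 and 172 CPM in NEU against 57.6 and 69.7 in MON, with 8 of 11 higher in NEU. Basophil and eosinophil markers summed to 313 and 332 CPM in MON against 57.1 and 60.9 in NEU, with 6 of 8 tested higher in MON. Of the macrophage and dendritic cell markers, which summed to 468 and 452 CPM in MON and 66.6 and 65.5 in NEU, Adgre1 made up most, and the tissue macrophage genes Vsig4, Marco, Timd4 and C1qb were at 0 in all 4 libraries. Platelet markers summed to 90.5 to 161 CPM, with 5 of 10 higher in NEU, and red cell markers to 6237 to 8679 CPM, with 4 of 8 tested higher in NEU. The part of these other cells in the differences below was not tested. In bulk RNA, fewer cells of a type and less RNA per cell cannot be told apart.

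RNA of the 36 genes, taken as a sum, was more abundant in the monocyte libraries. The 36 genes together took 5306 and 5590 CPM in MON against 3053 and 3081 CPM in NEU, a ratio of 1.78. By edgeR's quasi-likelihood test with a Benjamini-Hochberg adjusted p under 0.05, 21 of the 36 were higher in MON (58.3%), where 20.8% of all 14309 genes tested were. Another 2, Atp6v0a1 and Mcoln1, were higher in NEU (5.56%), where 21.8% of all genes tested were, and 13 did not pass. Among tested genes with a mean of at least 10 CPM, a level that Glb1 alone among the members missed, 29.7% were higher in MON and 27.1% higher in NEU. The median log2 fold change, MON over NEU, was 0.56 over the 36 genes, -0.06 over all genes tested and 0.04 over the genes of at least 10 CPM. All 36 passed the filter on low counts, the lowest count in any library being 130. The groups did not overlap in CPM for 30 of the 36 (83.3%), close to the 75.1% of all genes tested and the 82.4% of those with at least 10 CPM. Where a call is given without 1 library, that library's group has 1 sample, which is assumed to vary like the pair of the other group. Over all genes, such fits called 3945 and 3987 genes higher in MON and 4627 and 4675 higher in NEU without 1 MON library. They called 1984 and 2072 higher in MON and 1810 and 1913 higher in NEU without 1 NEU library, so that calls were gained in the former and lost in the latter across the transcriptome.

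**Figure D2:**
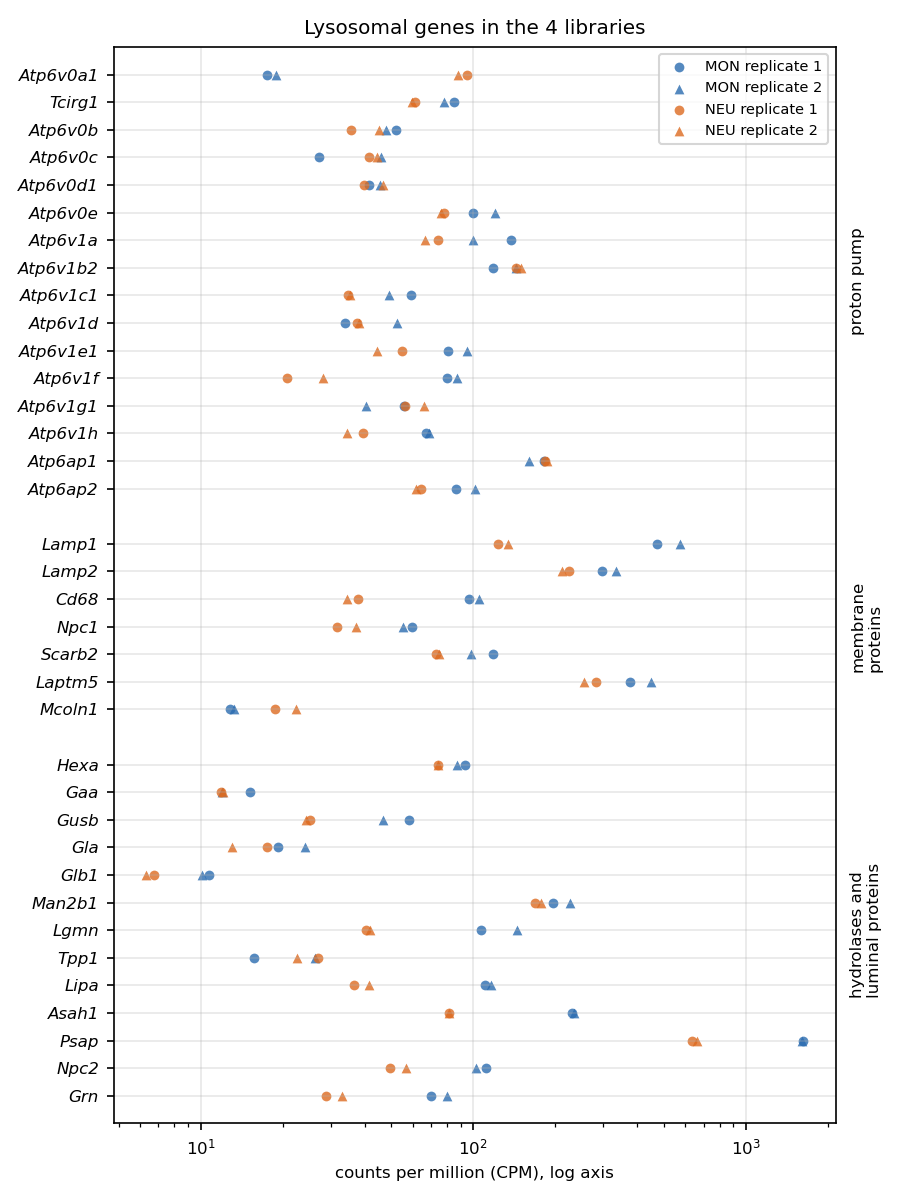
Level of each of the 36 genes in CPM on a log axis, with MON in blue, NEU in orange, circles for replicate 1 and triangles for replicate 2. Psap stands highest in every library, from 634 to 1617 CPM, and Atp6v0a1 and Mcoln1 are the genes called higher in NEU, with both orange points to the right of both blue points.

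Within each group of genes the shift differed in size. Hydrolases and luminal proteins summed to 2654 and 2713 CPM in MON against 1202 and 1242 in NEU, a ratio of 2.20, and of 1.87 without Psap. Membrane proteins summed to 1428 and 1624 CPM in MON against 792 and 770 in NEU, a ratio of 1.96. Lamp1 alone took 470.0 and 573.6 CPM of this in MON and 123.5 and 133.5 in NEU. A membrane ratio without Lamp1 was not computed. The proton pump differed least, with 1223 and 1254 CPM in MON against 1059 and 1070 in NEU, a ratio of 1.16. Median log2 fold changes were 1.01, 0.61 and 0.36 in the same order. No test compared the groups of genes with each other.

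**Figure D3:**
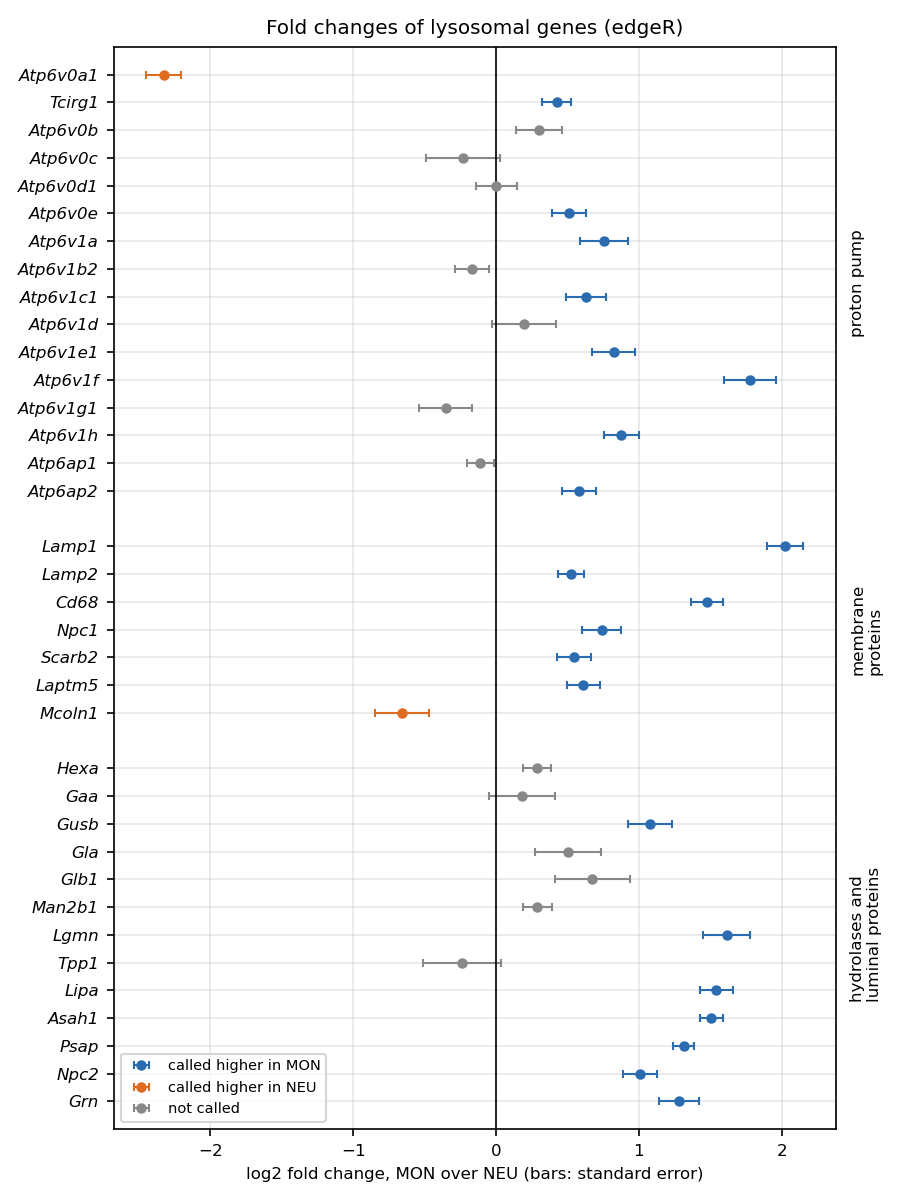
Log2 fold change, MON over NEU, of each gene with its standard error as a bar, from edgeR on 2 libraries per group. Blue points passed the test as higher in MON, orange as higher in NEU and grey did not pass, and values run from -2.33 for Atp6v0a1 to 2.02 for Lamp1.

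In the proton pump, 8 of 16 genes were higher in MON, 1 was higher in NEU and 7 did not pass. The one called higher in NEU was Atp6v0a1, an isoform of the a subunit, the part of V0 that forms the proton path and steers the pump to a membrane. It measured 17.5 and 18.9 CPM in the MON libraries and 94.8 and 87.7 CPM in the NEU libraries. Both NEU values lay far above both MON values, 5.01-fold on the CPM scale, with a log2 fold change of -2.33 ± 0.12 (SE, edgeR adjusted p = 0.00012). The effective length that RSEM gave the gene also differed by library, 917 and 1627 bases in MON and 2258 and 2570 bases in NEU. With that length as an offset the log2 fold change was -1.32, and on log2(TPM + 1) it was -1.09, and both stayed past the threshold.

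Tcirg1, the a3 isoform known from osteoclasts and macrophages, ran the other way, at 84.6 and 78.0 CPM in MON and 61.3 and 59.8 CPM in NEU. Its log2 fold change was 0.42 ± 0.10 (edgeR adjusted p = 0.022), a call that ended without NEU replicate 1 (0.42), without NEU replicate 2 (0.39) and with the length offset (0.65). The third isoform that was detected, Atp6v0a2, measured 31.1 and 36.5 CPM in MON and 32.2 and 30.4 CPM in NEU, with overlapping groups and a log2 fold change of 0.11 ± 0.15 (edgeR adjusted p = 0.59). Atp6v0a4, the isoform of kidney and inner ear, was at 0 in all 4 libraries.

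Read as shares of the a subunit RNA per kilobase of effective length, Atp6v0a1 made up 13.0% and 11.03% in MON and 36.6% and 31.1% in NEU. Tcirg1 made up 79.6% and 76.8% in MON and 53.6% and 59.2% in NEU, so it remained the leading isoform on this scale in every library. On the scale of counts, Atp6v0a1 led in NEU with 50.3% and 49.3%, against 13.2% and 14.2% in MON. The order of the isoforms in NEU therefore depended on the scale, while the higher Atp6v0a1 share in NEU was seen on both. In MON replicate 1, Atp6v0a2 made up 7.43% per kilobase and 23.3% by counts. It lay below Atp6v0a1 on the former scale and above it on the latter. In MON replicate 2, Atp6v0a2 lay above Atp6v0a1 on both scales. The other subunits that have isoforms were read almost wholly from 1 gene. Atp6v1b2, Atp6v1c1 and Atp6v1e1 made up 100% of their subunit in all 4 libraries, Atp6v0d1 at least 98.2% and Atp6v1g1 at least 94.5%, per kilobase.

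**Figure D4:**
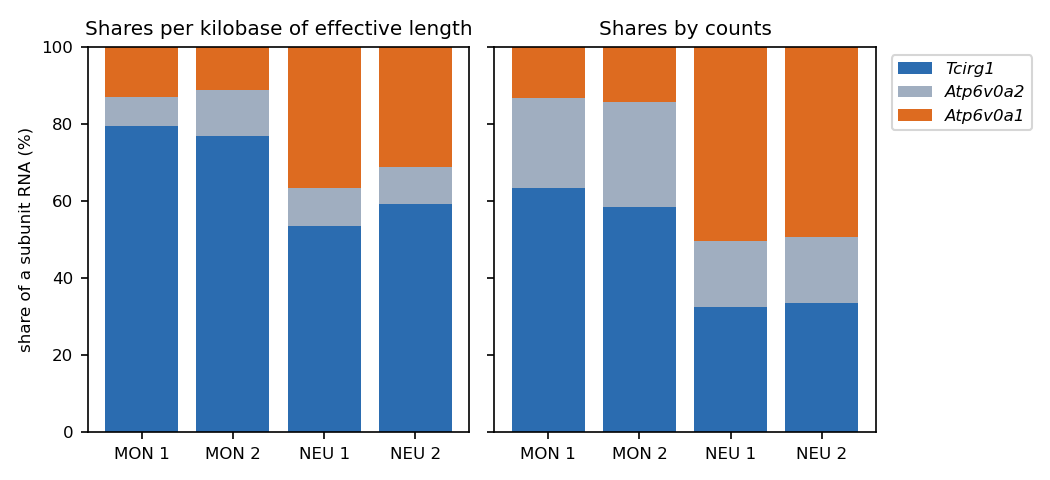
Shares of the V-ATPase a subunit RNA, in percent, taken by Tcirg1 (blue), Atp6v0a2 (grey) and Atp6v0a1 (orange) in each library, per kilobase of effective length on the left and by counts on the right. The Atp6v0a1 share is 11.03% to 13.0% in MON and 31.1% to 36.6% in NEU on the left, and 13.2% to 14.2% and 49.3% to 50.3% on the right.

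The rest of V0 differed little. Atp6v0e, a small subunit of the membrane domain, measured 100.0 and 120.0 CPM in MON and 78.1 and 76.1 CPM in NEU, a log2 fold change of 0.51 ± 0.12 (edgeR adjusted p = 0.020) that ended without NEU replicate 1 (0.51) and without NEU replicate 2 (0.48). Atp6v0c, the main subunit of the proton-carrying ring, measured 27.3 and 45.9 CPM in MON and 41.3 and 44.5 CPM in NEU. Its MON libraries differed more than those of any other member, and without MON replicate 2, a fit whose spread comes from the NEU pair, it passed as higher in NEU (-0.67), where with all libraries the value was -0.23 ± 0.26 (edgeR adjusted p = 0.52). Atp6v0b, a further ring subunit, measured 51.9 and 47.7 CPM in MON and 35.6 and 45.2 CPM in NEU. Atp6v0d1, which joins the ring to the central stalk, measured 41.3 and 45.6 CPM in MON and 39.8 and 46.8 CPM in NEU, a log2 fold change of 0.00 ± 0.15. Neither of the latter passed. All 6 V0 genes, with Atp6v0a1 and Tcirg1 included, summed to 323 and 356 CPM in MON against 351 and 360 in NEU. That sum therefore does not describe the rest of V0 alone.

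In V1, 5 of 8 genes were higher in MON (62.5%) and 3 did not pass. Of all genes tested, 20.8% were higher in MON, and 29.7% of those with at least 10 CPM. The V1 sum was 632 and 635 CPM in MON against 460 and 462 in NEU. Atp6v1f, a subunit of the central stalk, differed most, with 80.3 and 87.1 CPM in MON and 20.7 and 28.1 CPM in NEU, which is 3.43-fold and a log2 fold change of 1.78 ± 0.18 (edgeR adjusted p = 0.0010). Atp6v1h, which couples V1 to V0, measured 66.9 and 68.6 CPM in MON and 39.5 and 34.3 CPM in NEU (0.88 ± 0.12 on the log2 scale). Atp6v1e1, of the peripheral stalks, measured 81.0 and 94.7 CPM in MON and 54.9 and 44.4 CPM in NEU (0.82 ± 0.15). Groups lay apart for all 3, as they did for 82.4% of tested genes with at least 10 CPM. Each of the 3 calls held without any 1 library. Atp6v1a, the catalytic subunit that binds ATP, measured 137.7 and 99.97 CPM in MON and 73.95 and 66.7 CPM in NEU (0.76 ± 0.17). Atp6v1c1, which links the stalks to V0, measured 59.1 and 49.2 CPM in MON and 34.7 and 35.3 CPM in NEU (0.63 ± 0.14), and its call ended without NEU replicate 1 (0.59) or NEU replicate 2 (0.62).

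Atp6v1b2, the partner of the catalytic subunit, was no higher in MON, with 117.7 and 142.9 CPM against 142.9 and 149.7 CPM in NEU (-0.17 ± 0.12, edgeR adjusted p = 0.32). Atp6v1d, of the central stalk, measured 33.9 and 52.4 CPM in MON and 37.3 and 38.0 CPM in NEU. Atp6v1g1, of the peripheral stalks, measured 55.5 and 40.5 CPM in MON and 56.3 and 66.0 CPM in NEU. These 3 did not pass with all libraries. In fits without 1 MON library, where the spread comes from the NEU pair and calls rose over all genes, each passed, Atp6v1d as higher in MON (0.46) and Atp6v1g1 as higher in NEU (-0.61) without MON replicate 1, and Atp6v1b2 as higher in NEU (-0.34) without MON replicate 2.

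Of the accessory proteins, Atp6ap2, also known as the prorenin receptor, measured 86.4 and 101.8 CPM in MON and 64.3 and 61.7 CPM in NEU. Its log2 fold change of 0.58 ± 0.12 (edgeR adjusted p = 0.013) lost its call without NEU replicate 1 (0.58) or NEU replicate 2 (0.53). Atp6ap1, which helps V0 to assemble, measured 182.3 and 160.5 CPM in MON and 183.9 and 185.8 CPM in NEU, and did not pass (edgeR adjusted p = 0.39). Per kilobase of effective length, Atp6ap1 was the highest pump gene in each NEU library, at 161.2 and 155.6 CPM per kilobase, and Atp6v0a1 was the lowest in each MON library, at 19.1 and 11.6 CPM per kilobase.

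Of 9 genes tested that assemble and regulate the pump, 3 were higher in MON (33.3%), 2 were higher in NEU (22.2%) and 4 did not pass, with a median log2 fold change of 0.32. These shares lie near those of all genes with at least 10 CPM, 29.7% and 27.1%. Dmxl1 and Dmxl2 encode the rabconnectins, which are known to bring V1 back onto V0. Dmxl1 measured 139.2 and 143.7 CPM in MON and 476.0 and 440.4 CPM in NEU, a log2 fold change of -1.70 ± 0.08. Dmxl2 measured 43.3 and 29.7 CPM in MON and 323.2 and 306.5 CPM in NEU, a log2 fold change of -3.11 ± 0.19 (edgeR adjusted p = 0.00019), or -2.22 on log2(TPM + 1). Both NEU libraries thus stood well above both MON libraries for the pair, and both calls held without any 1 library. The 3 higher in MON were Vma21 (1.26 ± 0.29), an assembly chaperone of the endoplasmic reticulum, Ccdc115 (1.003 ± 0.18), another assembly factor, and Oxr1 (1.10 ± 0.14), of the TLDc family whose members bind V1. Without NEU replicate 1 the calls of Vma21 (1.36) and Ccdc115 (0.89) ended, and that of Vma21 (1.14) also ended without NEU replicate 2. Of the 11 other pump subunits, 5 were at 0 in all libraries and 3 were tested. Rnasek, a small V0 protein, was higher in NEU at 10.2 and 9.18 CPM against 4.56 and 3.64 CPM in MON (-1.24 ± 0.32), a call that ended without NEU replicate 1 (-1.19) or NEU replicate 2 (-1.33).

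Among the membrane proteins, 6 of 7 were higher in MON (85.7%) and 1 was higher in NEU (14.3%). Over all genes tested these shares were 20.8% and 21.8%, and over those with at least 10 CPM 29.7% and 27.1%. Lamp1, with Lamp2 the main glycoprotein of the lysosomal membrane, measured 470.0 and 573.6 CPM in MON and 123.5 and 133.5 CPM in NEU. Its groups lay 4.06-fold apart, with a log2 fold change of 2.02 ± 0.13 (edgeR adjusted p = 0.00020). Lamp2, which also serves chaperone-mediated autophagy, measured 297.0 and 332.4 CPM in MON and 224.5 and 212.1 CPM in NEU, and its log2 fold change of 0.53 ± 0.09 was smaller than that of Lamp1. Cd68, a LAMP-family protein of phagocytes and a usual macrophage marker, measured 96.7 and 104.5 CPM in MON and 37.7 and 34.5 CPM in NEU (1.48 ± 0.11). For Lamp1, Lamp2 and Cd68 each MON library lay above each NEU library. The groups lay apart, in either direction, for 82.4% of tested genes with at least 10 CPM.

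Laptm5, a membrane protein of blood cell lysosomes that binds ubiquitin ligases, measured 374.1 and 446.9 CPM in MON and 282.4 and 255.5 CPM in NEU (0.61 ± 0.11). Npc1, which exports cholesterol, measured 59.8 and 55.5 CPM in MON and 31.8 and 37.2 CPM in NEU (0.74 ± 0.14). Scarb2, the receptor that carries glucocerebrosidase to the lysosome, measured 117.9 and 97.8 CPM in MON and 72.9 and 74.6 CPM in NEU (0.55 ± 0.12). All 3 passed with groups that did not overlap, as was so for 82.4% of tested genes with at least 10 CPM. Without NEU replicate 1 the calls of Npc1 (0.61) and Scarb2 (0.51) ended, and without NEU replicate 2 that of Scarb2 (0.54) did.

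Mcoln1, the calcium channel TRPML1 that releases calcium from lysosomes, went the other way at 12.8 and 13.2 CPM in MON and 18.8 and 22.3 CPM in NEU. The log2 fold change was -0.66 ± 0.19 (edgeR adjusted p = 0.039). This call ended without NEU replicate 1 (-0.80), without NEU replicate 2 (-0.55), with the length offset (-0.64) and under DESeq2 (-0.66). The list of other lysosomal membrane proteins holds 6 further genes of ion channel families, grouped here after their values were seen. Of these, 3 were higher in NEU and 3 did not pass, where 21.8% of all genes tested were higher in NEU. Because the values were known first, this count says nothing about ion channels as a class. Mcoln2, a relative of Mcoln1, measured 10.7 and 11.9 CPM in MON and 30.2 and 26.9 CPM in NEU (-1.34 ± 0.17). The 2-pore channel Tpcn2 measured 6.60 and 8.58 CPM in MON and 18.3 and 19.6 CPM in NEU (-1.32 ± 0.24 from counts, -0.64 on log2(TPM + 1)). Its relative Tpcn1 measured 14.3 and 10.2 CPM in MON and 23.4 and 23.5 CPM in NEU (-0.93 ± 0.22), and lost its call without NEU replicate 1 (-0.96) or NEU replicate 2 (-0.95). The 3 that did not pass were Mcoln3 (-2.73 ± 0.86, edgeR adjusted p = 0.051), the proton channel Tmem175 (-0.58 ± 0.49, edgeR adjusted p = 0.39) and the chloride-proton exchanger Clcn7 (-0.10 ± 0.19, edgeR adjusted p = 0.70).

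Of 34 other lysosomal membrane proteins tested, 6 were higher in MON (17.6%), 10 were higher in NEU (29.4%) and 18 did not pass, and the median log2 fold change was -0.28. Of all genes tested, 20.8% and 21.8% were called in these directions, and the list was not tested against the 7 members. Laptm4a, a relative of Laptm5, was among the highest per kilobase and differed most of those called, with 485.5 and 633.9 CPM in MON and 82.6 and 81.1 CPM in NEU (2.77 ± 0.15). Slc11a1, the metal ion transporter Nramp1 of phagocytes, measured 162.7 and 210.8 CPM in MON and 94.4 and 88.4 CPM in NEU (1.03 ± 0.14). Of those called on the NEU side, Lamp3 had the largest log2 fold change, at -2.38 ± 0.56. It measured 0.92 and 0.82 CPM in MON and 4.02 and 5.11 CPM in NEU. Its call ended without NEU replicate 1 (-2.57) or NEU replicate 2 (-2.22).

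Among the 13 hydrolases and luminal proteins, 7 were higher in MON (53.85%), 0 were higher in NEU and 6 did not pass. Over all genes tested the shares were 20.8% in MON and 21.8% in NEU, and at 10 CPM or more 29.7% and 27.1%. Psap, the precursor of the saposins that present sphingolipids to their enzymes, was the most abundant member. It measured 1617 and 1603 CPM in MON and 634 and 659 CPM in NEU, a log2 fold change of 1.31 ± 0.07 (edgeR adjusted p = 0.00015). The replicates lay close to each other and the groups 2.49-fold apart. Npc2, which hands cholesterol to Npc1, measured 111.4 and 102.1 CPM in MON and 49.4 and 56.7 CPM in NEU (1.01 ± 0.12). Grn, the precursor of the granulins, measured 69.95 and 80.2 CPM in MON and 28.8 and 32.9 CPM in NEU (1.28 ± 0.14). All 3 luminal cofactors were thus higher in MON.

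The lipid hydrolases moved by similar amounts. Asah1, the acid ceramidase, measured 229.3 and 233.7 CPM in MON and 81.5 and 81.2 CPM in NEU (1.51 ± 0.08, edgeR adjusted p = 0.00013). Lipa, which frees cholesterol and fatty acids from stored esters and fats, measured 110.2 and 116.6 CPM in MON and 36.5 and 41.3 CPM in NEU (1.54 ± 0.12). Of the proteases, Lgmn, the asparagine-specific protease legumain, measured 107.1 and 144.4 CPM in MON and 40.4 and 41.7 CPM in NEU (1.61 ± 0.17, edgeR adjusted p = 0.0011). Tpp1, an aminopeptidase, measured 15.7 and 26.2 CPM in MON and 26.9 and 22.5 CPM in NEU, with overlapping groups, and did not pass (-0.24 ± 0.27). Without MON replicate 2, with the spread taken from the NEU pair, Tpp1 passed as higher in NEU (-0.67).

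The glycosidases differed less, with a median log2 fold change of 0.40 and 1 of 6 higher in MON (16.7%). That count lies below the 20.8% of all genes tested and the 29.7% of those with at least 10 CPM. Gusb, the beta-glucuronidase, measured 57.95 and 46.7 CPM in MON and 25.1 and 24.3 CPM in NEU (1.08 ± 0.15, edgeR adjusted p = 0.0034). Hexa, the alpha chain of beta-hexosaminidase, measured 93.6 and 87.5 CPM in MON and 74.4 and 74.1 CPM in NEU. Man2b1, the lysosomal alpha-mannosidase, measured 196.5 and 226.3 CPM in MON and 169.1 and 176.5 CPM in NEU. Both had groups that did not overlap, as did 82.4% of tested genes with at least 10 CPM. Both log2 fold changes were 0.29, but their adjusted p of 0.061 and 0.068 in edgeR lay above the threshold. Gla, the alpha-galactosidase, measured 19.2 and 24.1 CPM in MON and 17.6 and 13.0 CPM in NEU (0.50 ± 0.23). Glb1, the beta-galactosidase, was the least abundant member, at 10.7 and 10.1 CPM in MON and 6.77 and 6.32 CPM in NEU (0.67 ± 0.26). Gaa, which degrades glycogen, measured 15.2 and 11.9 CPM in MON and 11.8 and 12.1 CPM in NEU (0.18 ± 0.23). These 3 did not pass. With the spread taken from the NEU pair and more calls over all genes, Gla (0.64) and Man2b1 (0.37) passed as higher in MON without MON replicate 1, and Hexa (0.31) and Glb1 (0.69) without MON replicate 2.

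Of 41 other lysosomal hydrolases and cofactors tested, 16 were higher in MON (39.0%), 5 were higher in NEU (12.2%) and 20 did not pass. Their median log2 fold change was 0.27. Shares over all genes tested were 20.8% and 21.8%, and 29.7% and 27.1% over those with at least 10 CPM. Plbd1, a phospholipase B-like protein, measured 274.3 and 302.3 CPM in MON and 193.3 and 209.8 CPM in NEU (0.51 ± 0.10), a call that ended without NEU replicate 1 (0.43). Rnaset2b, an acid ribonuclease, was higher in MON (1.29 ± 0.12), with the limit that it has a near-identical copy, Rnaset2a, between which reads may be split uncertainly. The NEU side was led by Arsg, a sulfatase, with 21.4 and 27.2 CPM in NEU against 1.61 and 1.33 CPM in MON (-4.04 ± 0.28 from counts, -1.41 on log2(TPM + 1)). The other 4, named after their values were seen, were the tartrate-resistant phosphatase Acp5 (-1.23), the galactosylceramidase Galc (-1.08), the sialidase Neu1 (-0.71) and the palmitoyl-protein thioesterase Ppt1 (-0.45). The calls of Galc (-1.32 and -0.84) and Ppt1 (-0.48 and -0.46) ended without NEU replicate 1 or NEU replicate 2.

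Of 13 genes listed for enzyme sorting to lysosomes, 7 were higher in MON (53.8%), 2 were higher in NEU (15.4%) and 4 did not pass. Their median log2 fold change was 0.82. The list includes Sumf1 (2.1 ± 0.24), higher in MON, which encodes a sulfatase-modifying enzyme and is not itself a sorting gene. All genes tested gave shares of 20.8% and 21.8%, and those with at least 10 CPM gave 29.7% and 27.1%. M6pr, the cation-dependent mannose 6-phosphate receptor, measured 455.9 and 387.7 CPM in MON and 146.0 and 133.5 CPM in NEU (1.59 ± 0.11). Vps35, of the retromer complex that recycles such receptors, measured 145.9 and 169.6 CPM in MON and 87.9 and 90.7 CPM in NEU (0.82 ± 0.11). Cln8, which carries enzymes out of the endoplasmic reticulum, measured 81.1 and 70.8 CPM in MON and 4.07 and 4.67 CPM in NEU (4.12 ± 0.17 from counts, 2.02 on log2(TPM + 1)). Gga2, an adaptor for receptor sorting at the Golgi, was in contrast at 11.2 and 12.8 CPM in MON and 122.6 and 118.8 CPM in NEU (-3.33 ± 0.13 from counts, -2.34 on log2(TPM + 1)), and its relative Gga3 was also higher in NEU (-1.11 ± 0.13). The MON and NEU libraries did not overlap for these 5 genes, which were named for their level or change. Such genes made up 75.1% of all genes tested and 82.4% of those with at least 10 CPM.

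Of 23 regulators of lysosomal genes tested, 2 were higher in MON (8.70%), 6 were higher in NEU (26.1%) and 15 did not pass. Their median log2 fold change was -0.20. The NEU share lies near the 21.8% of all genes tested and the 27.1% of those with at least 10 CPM. In MON the shares were 20.8% and 29.7%. Tfeb itself measured 51.4 and 55.8 CPM in MON and 55.6 and 66.3 CPM in NEU, with overlapping groups and a log2 fold change of -0.19 ± 0.14 (edgeR adjusted p = 0.33). Its relative Mitf was higher in NEU, at 14.5 and 9.49 CPM against 4.33 and 5.72 CPM in MON (-1.25 ± 0.34), a call that ended without NEU replicate 1 (-0.94). Max, a partner of other E-box factors, measured 53.6 and 46.6 CPM in MON and 104.1 and 101.1 CPM in NEU (-1.03 ± 0.11). Fnip2, a partner of folliculin in nutrient sensing at the lysosome, measured 9.20 and 11.1 CPM in MON and 45.1 and 46.4 CPM in NEU (-2.17 ± 0.17 from counts, -0.87 on log2(TPM + 1)). The 2 genes higher in MON were Lamtor5 (1.46 ± 0.23), of the Ragulator complex, and Rheb (0.97 ± 0.12), the GTPase that activates mTORC1. The calls of Flcn (-0.68), Zkscan3 (-0.61) and Mtor (-0.59) as higher in NEU ended with the effective length offset, where the values were -0.10, -0.09 and 0.04.

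**Figure D5:**
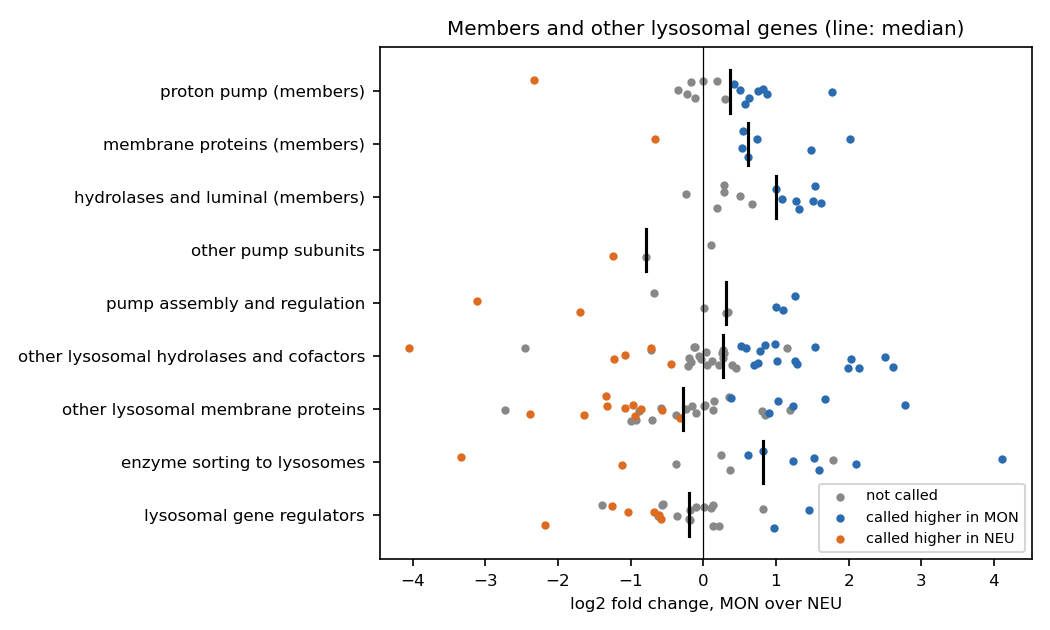
Log2 fold change, MON over NEU, of the 36 members in 3 groups and of the tested genes of 6 further lysosomal lists, 1 point per gene with the median as a black line. Blue and orange points passed the edgeR test as higher in MON or NEU and grey points did not, and the medians run from 1.01 for hydrolases and luminal members to -0.79 for the 3 other pump subunits.

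Placed on the scale of CPM per kilobase, 32 of the 36 members lay above the median of all genes tested and 13 above the 90th percentile. Psap led at 670.5 and 663.2 CPM per kilobase in MON and 261.9 and 271.9 in NEU. Laptm5, Atp6ap1 and Lamp1 followed by mean over the 4 libraries. The order of these 3 differed between groups, with Lamp1 at 226.0 and 274.1 above Atp6ap1 at 179.0 and 153.4 CPM per kilobase in MON, and Lamp1 at 59.1 and 63.7 below Atp6ap1 at 161.2 and 155.6 in NEU. Laptm5, at 191.3 and 241.3 in MON and 155.7 and 130.6 in NEU, overlapped with Lamp1 in MON and with Atp6ap1 in NEU. The uncertainty of assigning reads to genes was small for all members, at most 0.19% of the count, for Glb1, whose exons overlap those of Tmppe on the same strand. Exons of Atp6v0b, Atp6v1e1, Atp6v1h, Lamp1, Npc1, Hexa and Grn overlap those of another gene on the opposite strand, and how strand entered the counting was not given in the sources used here.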

How the data were processed

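Total RNA, depleted of ribosomal RNA, was made into random-primed libraries with PCR and no molecular identifiers. The authors deposited RSEM gene tables: expected counts, after STAR alignment to mm10 with a GENCODE annotation, and TPM, scaled by effective length. Of the deposited posterior columns, the mean count and its SD gave the uncertainty of read assignment. Groups came from the labels. Expected counts were rounded and tested in edgeR 4.0.16 (R 4.3.3) with filterByExpr, TMM factors (0.994 to 1.005), glmQLFit and glmQLFTest over all 14309 genes kept, with Benjamini-Hochberg adjustment over all of them. SE is the log2 fold change divided by the root of F. CPM is the expected count scaled to a common total over the gene entries of the library, and length-scaled levels divide it by effective length. Symbols and overlaps came from GENCODE M21, promoters from RefSeq.

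Alternatives were other factors, filters, a length offset, a test against a 2-fold change, DESeq2 1.42.0, leaving out each library, and limma 3.58.1 with a mean-variance trend on log2(TPM + 1) and log2(TPM + 0.1) for genes of at least 1 TPM in 2 libraries. The scripts were tested on simulated counts. The trend was added because limma without it recovered no changed gene there. The members, the other lists and the marker lists were chosen with earlier results of these data known. All members are named. In each other lysosomal list the 2 genes highest per kilobase and the 2 called with the largest change are named, others after their values were seen, and marker lists are given as sums. One gene that this rule names is not reported here. Precision depended on the spread between replicates as well as on totals of 20549572 to 26076261 counts. The common coefficient of variation that edgeR gave between the 2 libraries, over the genes tested, was 46.2% in MON and 14.7% in NEU. Over the members, the median absolute log2 ratio of the 2 libraries was 0.20 in MON and 0.11 in NEU. SEs over 2 libraries per group are themselves imprecise.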

Additional observations from a re-analysis of the deposited data

How the results depend on the processing

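Over 36 members and all alternatives, 502 fitted values kept direction and side of the threshold, 44 lost a call, 10 gained one and 18 changed sign, none of which was a called member. Against a 2-fold change, 7 members were higher in MON and 1 in NEU (pump 1, membrane 2 and hydrolase or luminal 4 in MON, membrane 0 in NEU), and in the other lists MON/NEU counts were 0 for assembly (MON), 0 for other subunits (NEU), 6 and 1 for other hydrolases, 1 and 1 for other membrane proteins, 4 and 1 for sorting, and 0 and 1 for regulators. With the length offset, 1 member was higher in NEU, 0 membrane members and 2 regulators. DESeq2 gave 1 member and 0 membrane members higher in NEU. At 10 CPM in 2 libraries, 0 other subunits were called. With limma on log2(TPM + 1) and log2(TPM + 0.1), NEU counts were 2 and 3 for other hydrolases, 5 and 4 for other membrane proteins, 1 and 1 for sorting and 2 and 2 for regulators, MON other membrane proteins were 3 with 0.1, and the median with 0.1 was 0.62. TPM rescaled over nuclear protein-coding genes, chosen after seeing the data, moved the median of all genes by -0.21 and the calls to 2014 MON and 2924 NEU (2974 and 3118 in the report). It gave a members' median of 0.38, pump 5, membrane 2 and other membrane proteins 3 in MON, and 3 regulators in NEU.

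Leaving out each library in turn, members higher in NEU ranged from 1 to 5, pump MON 4 to 9 and NEU 1 to 3, membrane NEU 0 to 1, hydrolase or luminal NEU 0 to 1, other subunits MON 0 to 2 and NEU 0 to 1, assembly MON 1 to 3, other hydrolases NEU 3 to 7, other membrane proteins NEU 5 to 16, regulators NEU 2 to 11, and the median 0.46 to 0.61. Log2 fold changes that turned sign in these were Atp6v0c (-0.67 to 0.084), Atp6v0d1 (-0.13 to 0.11), Atp6v1d (-0.17 to 0.46), Gaa (-0.015 to 0.33), Tpp1 (-0.67 to 0.071) and Atp6v0a2 (-0.030 to 0.21). Atp6v0d1 was -0.041 with upper-quartile factors, -0.015 with no filter and -0.015 at 10 CPM. With the length offset, limma +1 and limma +0.1, Atp6ap1 was 0.069, 0.091 and 0.093, Gaa -0.064, -0.022 and -0.053 and Mtor 0.040, 0.029 and 0.037. On rescaled TPM, Atp6v0d1 was -0.18, Atp6v1d -0.046, Gaa -0.28 and Atp6v0a2 -0.10. The causes were not tested. No paired analysis was possible because the labels give the groups no shared replicate numbers, and the replicate numbers 1 and 2 used here follow deposit order only. With 2 libraries per group, members that did not pass are not shown to be equal.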
